A study of Caenorhabditis elegans with 2 samples.

Results

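The regions described here are autosomal intronic sites, away from promoters, with high signal for tagged ZTF-11 in first-stage larvae of Caenorhabditis elegans. They were chosen by pooled signal. Of 30000 regions called on the reads of both replicates, the 5000 of highest signal were taken and those on X were dropped. A region was kept when its summit, the base of highest signal, lay more than 500 bp from every protein-coding transcript start, inside a protein-coding gene and outside its exons. This left 1194 regions, 23.9% of the 5000 and 28.7% of the 4154 autosomal ones. Because pooled signal selected them, signal and rank are given as descriptions, with no test.

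The study had 1 group with 2 biological replicates of chromatin immunoprecipitation sequencing. The animals were whole larvae of mixed sex from strain OP236, genotype unc-119(ed3) III; wgIs236, in which an inserted transgene makes ZTF-11 with GFP-FLAG at the C-terminus. Chromatin was broken by sonication. The labels give neither the promoter of the transgene nor how much flanking sequence it carries, and whole larvae mix all tissues. Binding in few cells and weak binding in many cannot be told apart. There was no second condition, so no contrast was possible. Read depth is unknown, and the intervals below are exact 95% intervals for counts of regions only.

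The Myt1 family of zinc-finger proteins, to which ZTF-11 belongs, is known for promoting neuronal fate, in part by repressing genes of other fates. Introns of many animal genes are known to hold enhancers. Worm introns also hold small RNA genes, among them those of small nucleolar RNAs (snoRNAs), which guide chemical modification of other RNAs, spliceosomal small nuclear RNAs (snRNAs) and tRNAs.

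The sequences below were taken at the summits on which the description turns. The first 4 belong to regions that are also peaks of the authors' thresholded list, called the consensus here. The name is only a label, and some of these regions ranked far higher in replicate 2 than in replicate 1. W10C6.2, mpk-2, sea-2 and Y43F8C.6 were among the 1000 highest regions of both replicates, and ida-1 and rig-6 held the highest region of the pan-neuronal and of the axon guidance genes. Each run is 101 bases centred on the summit, plus strand, from the RefSeq sequence of WBcel235 in ce11 coordinates, and each lies inside the intron. Capitals mark AAGTT, known as the core word of Myt1 family motifs, or its reverse complement AACTT.
F58G1.7, chrII:12944834-12944934: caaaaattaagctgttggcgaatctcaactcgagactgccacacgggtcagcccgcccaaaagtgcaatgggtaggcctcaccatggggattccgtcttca
pqn-41, chrIII:1921380-1921480: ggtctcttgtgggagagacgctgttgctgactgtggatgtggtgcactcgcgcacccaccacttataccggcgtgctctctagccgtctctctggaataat
Y111B2A.12, chrIII:12612650-12612750: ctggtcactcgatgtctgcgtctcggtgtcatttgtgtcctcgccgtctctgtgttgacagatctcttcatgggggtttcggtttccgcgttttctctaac
W10C6.2, chrII:11121120-11121220: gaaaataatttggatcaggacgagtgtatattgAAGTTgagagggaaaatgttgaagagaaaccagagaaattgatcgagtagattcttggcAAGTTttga
mpk-2, chrII:5105178-5105278: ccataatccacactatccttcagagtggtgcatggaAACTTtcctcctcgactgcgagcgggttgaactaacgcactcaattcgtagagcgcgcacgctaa
sea-2, chrII:3960038-3960138: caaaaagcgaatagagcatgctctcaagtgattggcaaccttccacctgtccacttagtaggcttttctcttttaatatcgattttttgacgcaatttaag
Y43F8C.6, chrV:19639050-19639150: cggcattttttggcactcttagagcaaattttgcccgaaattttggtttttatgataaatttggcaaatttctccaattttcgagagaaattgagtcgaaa
ida-1, chrIII:5758176-5758276: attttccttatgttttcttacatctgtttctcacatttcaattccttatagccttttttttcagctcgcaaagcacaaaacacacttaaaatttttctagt
rig-6, chrII:4805519-4805619: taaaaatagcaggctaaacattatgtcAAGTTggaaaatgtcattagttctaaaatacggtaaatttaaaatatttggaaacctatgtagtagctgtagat
W10C6.2 held 2 copies of the word, mpk-2 and rig-6 held 1 each, and the other 6 windows held 0. GC content was 53.5% at F58G1.7, 56.4% at pqn-41, 52.5% at Y111B2A.12 and 51.5% at mpk-2, against 29.7% at ida-1 and 27.7% at rig-6. It was 35.6% at W10C6.2, 38.6% at sea-2 and 33.7% at Y43F8C.6. The F58G1.7 summit lay inside an snRNA gene and the mpk-2 summit inside a snoRNA gene. The highest intronic regions thus included GC-rich ones, whereas the mean over all 1194 was 29.6%.

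Few intronic regions stood at the very top of the ranking. Their pooled signal spanned 20.97 to 49.5 (median 23.6), and the highest region had rank 41. Among the autosomal regions at ranks 1 to 250, 38 of 212 were intronic by this rule, or 17.9% (13.01% to 23.8%). The share was 27.5% (24.02% to 31.2%) at ranks 251 to 1000, 29.04% (26.5% to 31.7%) at ranks 1001 to 2500 and 30.03% (28.1% to 32.1%) at ranks 2501 to 5000. Beyond the limit of the rule, down to rank 30000, it was 30.3% to 31.2%. Introns meeting the same distance rule make up 26.6% of autosomal bases. Rank is the value that selected the regions, so these shares only describe the list.

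**Figure D1:**
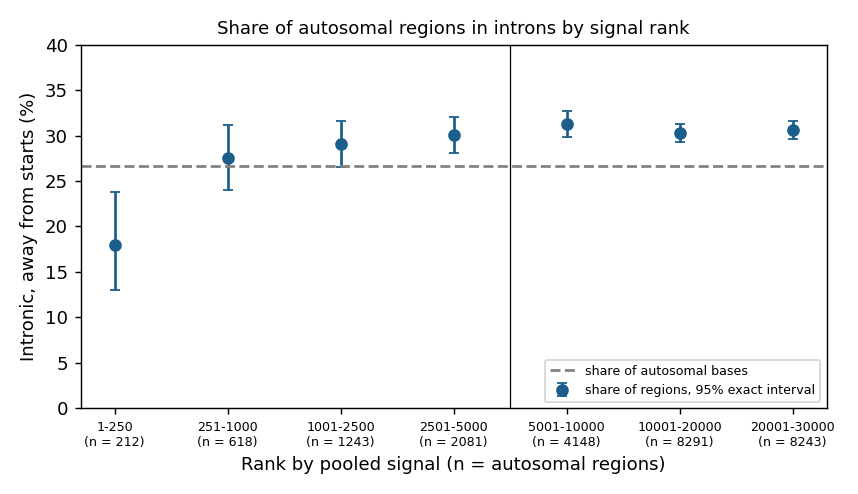
Share of autosomal pooled regions that were intronic and more than 500 bp from a start (y, percent) by rank of pooled signal (x), with exact 95% intervals; the dashed line is the share of autosomal bases (26.6%) and the vertical line marks rank 5000. Ranks 1 to 250 lie at 17.9% and the other points between 27.5% and 31.2%.

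The limits of the rule cut through a continuum. The lowest region kept had a signal of 20.97, and the next intronic autosomal region, at rank 5004, had 20.96. The closest summit kept lay 501 bp from a start, and the closest intronic one left out lay at 493 bp. Another 373 intronic summits lay within 500 bp of a start and were left out.

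Per base, intronic and intergenic sequence held similar numbers of high regions. Eligible introns, those bases that satisfy the same rule, held 54.3 regions per Mb (51.3 to 57.5) and intergenic sequence away from starts 53.3 (50.3 to 56.3), with overlapping intervals. Sequence within 500 bp of starts held 63.5 per Mb (60.04 to 67.1), and exons away from starts held 26.6 (24.2 to 29.1). The intronic interval lay below the first and above the second. The intronic density was 2.04 times the exonic one, and 3.19 times among the 1000 highest regions. With the 5000 highest regions of replicate 2 alone the ratio was 1.40. Base composition differs between these classes, and its part was not tested.

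Only 4 of the 1194 regions were consensus peaks, or 0.335% (0.0914% to 0.856%), against 1.76% of all 5000 regions and 3.82% (2.83% to 5.03%) of the 1258 autosomal promoter regions. The share was 0.428% (0.0519% to 1.54%) for exonic and 1.13% (0.621% to 1.89%) for intergenic regions, with intervals overlapping the intronic one. For X regions it was 2.36% (1.45% to 3.63%). The 4 intronic ones had pooled ranks from 41 to 77, whereas the intronic regions at ranks 89 and 98 were not consensus peaks. Pooled signal selected the regions, so this count only describes the list.

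Of these 4, the highest lay in an intron of F58G1.7 at chromosome II 12944709 to 12945058, with its summit inside the snRNA gene sup-6. Its signal was 49.5 in the pooled list, 15.3 at rank 2328 in replicate 1 and 24.6 at rank 69 in replicate 2. The pqn-41 region, at chromosome III 1921255 to 1921604, had a pooled signal of 46.8, no summit within 200 bp in replicate 1, and 25.6 at rank 62 in replicate 2. The Y111B2A.12 region, at chromosome III 12612525 to 12612874, had 45.96 in the pooled list, 12.6 at rank 6310 in replicate 1 and 31.8 at rank 27 in replicate 2. These 3 ranked far higher in replicate 2. The W10C6.2 region, at chromosome II 11120995 to 11121344, was high in both, with 42.5 in the pooled list, 31.7 at rank 46 in replicate 1 and 19.5 at rank 254 in replicate 2.

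The other regions among the 20 of highest signal lay in genes of unlike roles, with signals down to 35.7. Their hosts included rhgf-3 (40.3), mpk-2, a MAP kinase (39.1), mom-4, a kinase of the Wnt pathway (38.1), let-526, a subunit of a chromatin remodelling complex (37.5), pxn-1, a peroxidasin (36.6), ppm-1.D, a protein phosphatase (36.5), ida-1, a dense core vesicle protein of neurons (36.3), and sea-2, a zinc-finger gene known from sex determination (35.97). The remaining hosts were W06H8.6, spe-15, C06E7.4, C37A5.7, Y43F8C.7, attf-6, let-391 and C17G10.6, with 35.7 to 39.7. Replicates could disagree here too. The attf-6 region ranked 125 in replicate 1 and 20790 in replicate 2, and the let-526 region ranked 7720 and 166.

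Most intronic regions had a summit within 200 bp in each replicate list. Replicate 1 matched 1064 (89.1%, 87.2% to 90.8%), replicate 2 matched 961 (80.5%, 78.1% to 82.7%) and both matched 832 (69.7%, 66.99% to 72.3%). Among all 5000 regions the share matched in both was 69.5%, so introns stood at the background. Of the centres of 350-bp windows tiled over eligible introns, 13.1% had a summit of replicate 1 within 200 bp, 12.3% one of replicate 2 and 3.04% one of each. Among the 832 regions matched in both, ranks in the replicate 1 and replicate 2 lists had a Spearman correlation of -0.296. The pooled list contains the reads of both replicates, so neither the matches nor this correlation is independent of the selection.

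High rank in both replicates was uncommon. Of the 1194 regions, 97 were among the 5000 highest of both lists, or 8.12% (6.64% to 9.82%), against 10% of all 5000 regions. The share was 13.99% (12.1% to 16.03%) for promoter regions and 9.39% (7.82% to 11.2%) for intergenic ones. By pooled rank the count was 23 of 38 at ranks 1 to 250, 45 of 170 at 251 to 1000, 24 of 361 at 1001 to 2500 and 5 of 625 at 2501 to 5000. Pooled rank comes from the reads of both replicates, so this fall with rank only describes the list. The other classes were not split by rank here.

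Among the 1000 highest of both replicates were 8 intronic regions (0.670%, 0.290% to 1.32%). Over all 5000 regions the share was 1.84%. It was 3.50% (2.55% to 4.67%) for promoter, 1.13% (0.621% to 1.89%) for intergenic and 0.428% (0.0519% to 1.54%) for exonic regions. Besides W10C6.2, the rhgf-3 region at chromosome I 14582627 to 14582976 had a signal of 17.8 in replicate 1 and 17.97 in replicate 2. The mpk-2 region at chromosome II 5105053 to 5105402 had 23.2 and 16.5, and its summit lay inside the snoRNA gene C04G6.12. The spe-15 region at chromosome I 1447012 to 1447361, in an intron of a myosin gene, had 18.4 and 20.1, with its summit inside a tRNA gene. In sea-2, the region at chromosome II 3959913 to 3960262 lay in an intron of 10355 bp and had 17.8 and 18.01.

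The let-391 region at chromosome I 6039754 to 6040103 had a signal of 18.2 in replicate 1 and 20.4 in replicate 2. The oct-1 region, in an organic cation transporter gene, ranked 602 in replicate 1 and 236 in replicate 2, and it lies near ztf-11, a locus described below. The Y43F8C.6 region at chromosome V 19638925 to 19639274 had 20.6 and 17.9 but a pooled signal of only 25.7, at rank 1573. Its replicate 2 match, at rank 510, was also the match of a neighbouring intronic region in the same intron.

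**Figure D2:**
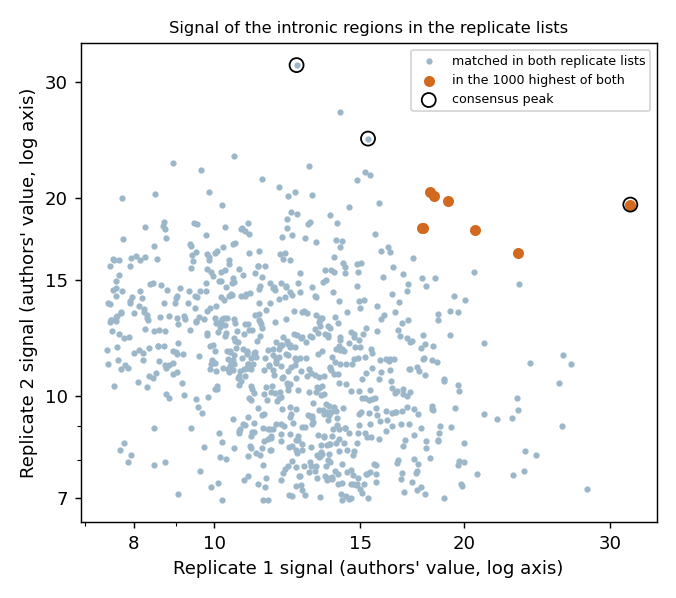
Signal of the 832 intronic regions matched in both lists, in replicate 1 (x) and replicate 2 (y), as the authors' values on log axes; orange points are the 8 regions among the 1000 highest of both and open circles are consensus peaks. Few points are high on both axes, and the pqn-41 consensus peak is not drawn because it had no replicate 1 match.

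A dense cluster of intronic regions lay at the ztf-11 gene itself, on chromosome I, a locus chosen after its values were seen. Within 20 kb of ztf-11, 12 regions lay in introns of 6 genes over 0.0106 Mb of eligible introns, or 1135 per Mb (586 to 1982), against 54.3 per Mb over all autosomal introns. Signals ran from 23.8 to 38.1. In ztf-11 there were 3 regions, with pooled signals of 28.6, 26.9 and 23.8. The first had no match in replicate 1 and rank 628 in replicate 2, and the second ranked 300 and 13926. The mom-4 gene also had 3, and its highest (38.1) ranked 135 in replicate 1 with no match in replicate 2. The others lay in oct-1 (33.3 and 28.2), nas-5 (26.9 and 23.8), strl-1 (33.7) and lsl-1 (23.9).

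Of these 12 regions 8 matched in both replicates, 5 were among the 1000 highest of replicate 1 and 4 among those of replicate 2. Over all 1194 intronic regions the corresponding shares were 69.7%, 12.9% and 10.6%. The strain carries an added ztf-11 transgene, so extra copies of this stretch and binding to it cannot be told apart. Around unc-119, the gene that is mutated in the strain, there was 1 region, or 45.8 per Mb (1.16 to 255).

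By position, the regions lay about where intronic sequence lies. First introns held 309 of 1194 (25.9%, 23.4% to 28.5%), against 22.6% of eligible bases. Introns over 1000 bp held 633 (53.02%, 50.1% to 55.9%), against 50.997%. The 33.3% of each autosome at either end held 897 (75.1%, 72.6% to 77.6%), against 73.8%. Of these only the first-intron interval lay above its share of bases. With summits more than 1000 bp from starts, first introns held 152 of 881 (17.25%, 14.8% to 19.9%) against 16.5% of the bases then eligible, a value inside the interval. The median summit lay 286 bp from the nearer end of its intron, and the median intron was 1070 bp long.

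Density varied with intron length and chromosome. It was 35.0 per Mb (28.98 to 41.9) in introns of up to 300 bp and 64.7 (56.99 to 73.1) in those of 601 to 1000 bp, with intervals that did not overlap. The other length classes had 50.6 to 61.2 per Mb. Among autosomes it ran from 39.7 (33.5 to 46.8) on II to 66.9 (59.6 to 74.97) on IV, with 47.9 on V, 55.5 on III and 58.4 on I. Chromosome IV is known to carry clusters of piRNA genes, whose small RNAs silence transposons in the germline. Of the 299 regions on IV, 19 had their summit inside a piRNA gene, and no other autosome had such a summit. The share of eligible introns inside piRNA genes was not measured, so this count has no background and shows no excess. The part of these genes in the density of IV was not tested.

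**Figure D3:**
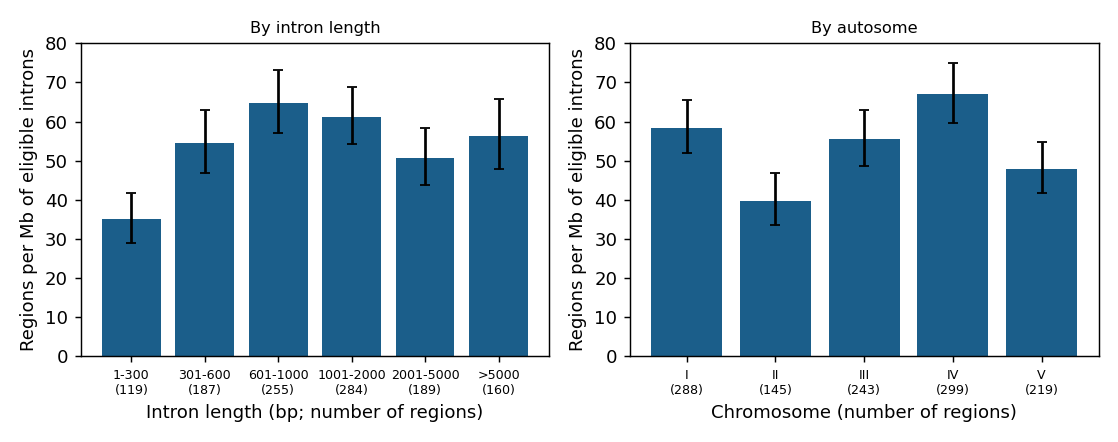
Intronic regions per Mb of eligible introns (y), by intron length (left) and autosome (right), with exact 95% Poisson intervals and the number of regions under each bar. Introns of up to 300 bp (35.0) and chromosome II (39.7) are lowest, and chromosome IV (66.9) is the highest autosome.

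Summits were AT-rich. GC content within 50 bp was 29.6% ± 7.52 (SD, n = 1194 regions), against 34.3% ± 6.71 in windows 400 bp to either side, and 839 regions (70.3%) were lower at the summit. Windows tiled over eligible introns had 32.98% ± 8.55. At 400 bp, 29.4% to 31.2% of flank positions lay in a protein-coding exon. With flanks limited to eligible introns, the difference shrank from -4.63 to -1.89 percentage points. With the regions of replicate 2 alone it was -2.91. Intergenic regions had 30.7% ± 8.08 at summits and promoter regions 33.6% ± 8.94.

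Masked sequence was common. Bases that RefSeq marks as repeats or low-complexity sequence made up 54.4% of the regions on average, against 48.1% of tiled intronic windows. More than 50% of bases were masked in 677 regions (56.7%, 53.8% to 59.5%), against 44.5% of tiled windows. Against tiled windows, exactly repeated sequence went the other way. A 31-base word found more than once in the genome occurred in 255 regions (21.4%, 19.06% to 23.8%), against 36.8% of tiled windows. Among the classes of high regions, the intronic share was still the highest. It was 13.7% for intergenic, 9.85% for exonic, 8.43% for promoter and 8.39% for X regions. The share with more than 50% masked was also lower in these classes, from 18.8% (exonic) to 39.8% (intergenic). How reads in repeats were handled is not known here, and its part was not tested.

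**Figure D4:**
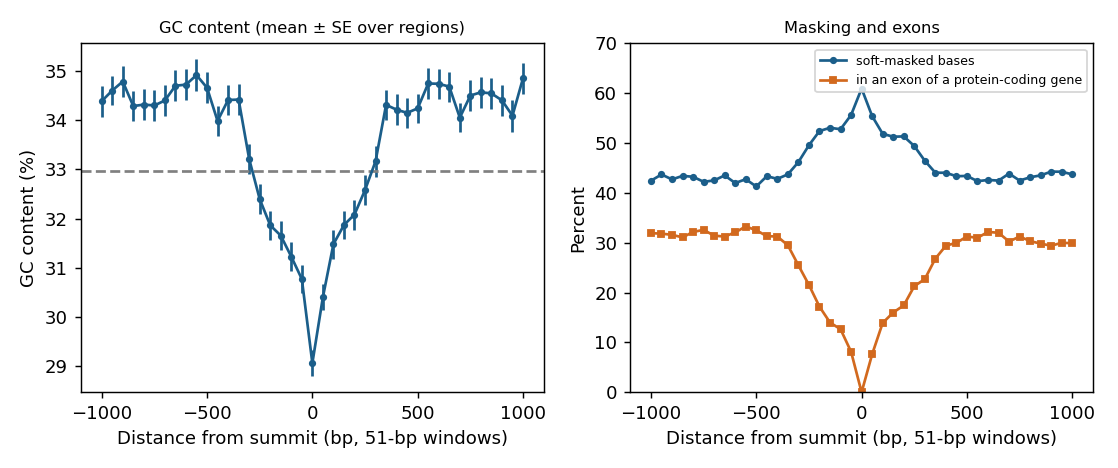
Left, GC content (mean ± SE over 1194 regions) in 51-bp windows by distance from the summit (x, bp), with the tiled-window mean of 32.98% dashed; right, the percent of masked bases and of positions in protein-coding exons. GC is lowest and masking highest at the summit, and the exon share rises from 0%, set there by the rule, to about 30% beyond 400 bp.

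The AAGTT word, searched on both strands, was not clearly set apart at these summits. It lay within 50 bp of 477 (39.95%, 37.2% to 42.8%), in 33.7% (31.8% to 35.6%) of flank windows and in 37.7% of tiled intronic windows, a value inside the summit interval. The summit minus flank difference of 6.24 percentage points depended on settings. It was 1.97 with intronic flanks only, 11.8 among the 1000 highest regions and 3.84 among the 10000 highest. At ranks 1 to 250 the word lay at 39.5% of summits and in 34.2% of flank windows. At ranks 251 to 1000 these shares were 43.5% and 30.3%. Among 30 words of the same letters, AAGTT was at place 12 by the ratio of summit to flank share (1.19), and TTAGA had the highest ratio (1.33).

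Small RNA genes lay close to some of the highest regions. A tRNA, snoRNA or snRNA gene was within 200 bp of 21 summits (1.76%, 1.09% to 2.68%), against 0.468% of tiled intronic windows, and 10 summits lay inside one. The share was similar in intergenic (1.62%, 0.992% to 2.49%), promoter (1.27%, 0.729% to 2.06%) and exonic regions (1.499%, 0.605% to 3.06%). X regions had 3.19% (2.11% to 4.61%). Among high regions the share was thus not particular to introns. Of the 38 regions at ranks 1 to 250, 7 were of this kind, as were 7 of the 625 at ranks 2501 to 5000. Median pooled signal was 30.8 for the 21 and 23.6 for the other 1173. Pooled signal selected the regions, so these splits by rank and signal only describe the list. The other classes were not split by rank here. GC content was 45.3% ± 7.80 for the 21 and 29.4% ± 7.21 for the other 1173 (SD). Both replicates matched 18 of the 21 and 814 of the other 1173.

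Of the 21 regions, 9 were by a snoRNA gene, 6 by an snRNA gene and 6 by a tRNA gene. The snoRNA cases included summits inside a snoRNA gene in introns of kin-1, the catalytic subunit of protein kinase A (33.01), uaf-1, a splicing factor (32.02), and frm-7, at pooled rank 424. In unc-70, a spectrin gene, the region had a pooled signal of 23.6, no match in replicate 1 and rank 130 in replicate 2. Near the snRNA gene sup-39, in C15F1.5, there were 2 regions, at pooled ranks 176 and 3897, and they shared a single replicate 1 match, at rank 86.

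Most host genes held 1 region. Of 961 hosts, 798 had 1, 118 had 2 and 45 had 3 or more. Hosts were 6.69% of the 14368 autosomal genes with eligible introns, and they had more such sequence, with a median of 3.94 kb against 0.599 kb over all these genes. The most regions were in pqn-41 (8), in rhgf-3, soc-2 and ppfr-1 (6 each), and in ptp-3 and kcc-2 (5 each). Per kb of eligible introns these genes held from 0.151 (rhgf-3) to 0.318 (soc-2) regions. Among hosts of 3 or more, mom-4, near ztf-11, had the highest density, at 1.11 per kb.

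In pqn-41, a gene known from death of the linker cell, signals ran from 22.5 to 46.8. The 3 highest (46.8, 32.7 and 32.4) lay in an intron of 7776 bp and had GC contents of 50.5% to 56.4%, above the 29.7% to 39.6% of the other 5. In replicate 2 these 3 ranked 62, 796 and 114. In replicate 1 the first had no match and the others ranked 3537 and 16130. None of the 8 regions held AAGTT within 50 bp.

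The soc-2 gene, a scaffold of Ras signalling, had signals from 21.1 to 32.6, and its highest region ranked 720 in replicate 1 and 7192 in replicate 2. In ppfr-1, a phosphatase regulatory subunit, they ran from 21.1 to 28.2, with 5 of the 6 regions in an intron of 10404 bp. Those in ptp-3, a receptor tyrosine phosphatase of axon guidance, ran from 21.8 to 24.6, and those in kcc-2, a potassium chloride cotransporter, from 21.3 to 23.9, near the limit of the rule. A further 7 genes had 4 regions each: Y43F8C.6, agef-1, afd-1, gcn-1, tbc-17, edc-4 and pdfr-1, a neuropeptide receptor.

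Neuronal genes were hosts at a density within counting error of that of all introns. Of 27 pan-neuronal genes with eligible introns, 7 held 10 regions, or 70.3 per Mb (33.7 to 129), against 54.3 overall. The ida-1 gene had 3, and the highest, in a first intron of 5740 bp, had 15.4 in replicate 1 and 21.7 in replicate 2. The ric-4 gene, a SNAP-25 homologue of synapses, had 2 (25.3 and 24.6), and unc-13, a vesicle priming factor, had 1 (29.4). The others were unc-11, maco-1, cla-1 and slo-1, with 22.3 to 24.96.

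Of 27 neuronal fate factors, 4 held a region, or 53.3 per Mb (14.5 to 136). The highest, in cnd-1, a NeuroD homologue, had a pooled signal of 29.04 and ranked 822 in replicate 1 and 21376 in replicate 2. Those in mab-5, ahr-1 and unc-86 had 23.4, 22.7 and 20.97. Of 20 axon guidance and adhesion genes, ptp-3, rig-6, sax-7 and vab-1 held 8 regions, or 37.3 per Mb (16.1 to 73.5).

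Lists of other tissues had intervals that also held 54.3. Of 14 muscle structure genes, 4 were hosts, at 38.4 per Mb (10.5 to 98.3), and the highest region was in deb-1, the vinculin of muscle attachments (32.5). Of 11 epidermal genes, nhr-23 (27.2) and vab-10 (25.3) were hosts, at 29.1 per Mb (3.53 to 105). None of 7 intestinal genes was a host, but they had only 0.00804 Mb of eligible introns, which allows up to 459 per Mb.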

How the data were processed

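The deposited README texts describe lists meant for the irreproducible discovery rate procedure, made per replicate and on pooled reads with a control. The aligner, the peak caller and the strain of the control are not given in the sources used here. Signal (column 7) and a score (column 9) are the authors' values in the deposited ce11 lists. The score lay above 0 for 125 intronic regions and below 0 for 1069, so it was not read as a q value. Depth is unknown.

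Summits were placed on the Ensembl release 115 annotation of WBcel235, the build of ce11, and sequence came from RefSeq. A summit in several introns was given the shortest one. A summit in an exon of any protein-coding gene was not counted as intronic. Tiled windows were 350 bp wide. Their GC content and AAGTT were taken within 50 bp of the centre, and replicate summits and small RNA genes within 200 bp of it. Intervals are exact binomial (Clopper-Pearson) or Poisson, at 95%, and no p-value was computed. Classification, matching and word counts were tested on cases with known answers.

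The regions and lists were chosen with earlier results of these data known. Genes named are hosts of the 20 highest regions, of consensus regions, of regions among the 1000 highest of both replicates, of several regions and of regions by small RNA genes, and the highest hosts of each list; the genes around ztf-11 were named after their values were seen. The listed names tomt-1, efn-1 and opt-2 matched no gene. Python 3.11.15, numpy 2.4.6, pandas 2.3.3, scipy 1.17.1 and matplotlib 3.10.9 were used.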

Additional observations from a re-analysis of the deposited data

How the results depend on the processing

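Of 64 alternative values, 47 stayed near the main value and 17 moved, and 4 of the 64 were added after the data were seen. Near meant inside a 95% interval around the main value, or inside a fixed fold band for the number of regions. Direction could change only for the AAGTT and GC differences and the density ratio, and it changed for 0 of them. The cause of the moves was not tested, except that the number of regions follows from the number ranked. With the 1000 highest regions there were 208 intronic ones, 87.02% matched in both replicates, a density ratio of introns to exons of 3.19 and an AAGTT difference of 11.8 points; with the 10000 highest there were 2489, of which 53.96% matched. Beyond 1000 bp from starts, first introns held 17.25% and introns over 1000 bp 55.96%. Matching within 100 bp gave 55.95% and within 350 bp 74.8%. Windows of 100 bp gave a GC difference of -3.76 points, and the outer 25% at either chromosome end held 58.8%. Intronic flanks alone gave an AAGTT difference of 1.97 and a GC difference of -1.89. Without replicate 1 or 2, the density ratio ran from 1.40 to 2.15 and the GC difference from -5.18 to -2.91. No paired analysis was possible because both replicates belong to the same group. With no read counts in the lists, what depth limits is unknown.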
